A study of Homo sapiens with 27 samples.

Results

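The genes described here are the abundant long non-coding RNAs (lncRNAs) of REH, a human cell line with the ETV6/RUNX1 fusion that was established from a B-cell precursor leukemia (BCP-ALL). They were chosen by their measured level: a gene was included if its annotation biotype was lncRNA and its mean over the 5 control samples was at least 20 CPM (reads of the gene relative to all counted reads of the sample, scaled to a fixed total), and the SNHG genes, GAS5, LINC02891 and ENSG00000227579, the gene of the targeted lnc-ASTN1-1, were left out by name. This gave 106 of the 14013 lncRNA genes in the files, or 106 of the 2327 lncRNA genes and 16268 genes of all kinds that passed the filter on low counts; another 15 lncRNA genes reached the threshold but were excluded by name. All 106 passed that filter, and the lowest count of any of them in any sample was 186 reads.

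RNA was sequenced from 27 samples of this line, all harvested 72 h after the start of treatment. LNA GapmeRs are short antisense oligonucleotides with locked nucleic acid ends and a DNA centre, which direct RNase H to RNA that pairs with them. They were added at 10 µM and taken up without a transfection reagent. Of the 10 groups, 2 served as controls: medium alone (n = 2, replicates 1 and 2) and a non-targeting GapmeR (NTC, n = 3). The other groups each received 1 of 8 GapmeRs, GapmeR1 and GapmeR2 against each of 4 lncRNAs: lnc-NKX2-3-1 (n = 2, replicates 1 and 2, and n = 3), lnc-RTN4R-1 (n = 3 and n = 3), lnc-TIMM21-5 (n = 3 and n = 3) and lnc-ASTN1-1 (n = 3, and n = 2, replicates 1 and 3). All groups share 1 cell line, so the values describe REH cells and not BCP-ALL in general.

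LncRNAs are transcripts without a long open reading frame. Some act in the nucleus, as scaffolds of nuclear bodies or near the place where they are made, some act in the cytoplasm, where they bind proteins or microRNAs, and some are chiefly the precursors of small RNAs that lie in their exons or introns. Because a lncRNA transcript may itself be the functional product, and because many lie beside or across protein-coding genes, its level is often read together with that of its neighbour.

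Totals per sample ran from 14627110 to 22750945 counts. Each targeted lncRNA lay below every control sample in every sample treated against it, at 13.1% to 52.2% of the control mean. The control mean was only 0.764 ± 0.354 CPM (SD) for lnc-NKX2-3-1 and 1.57 ± 0.485 CPM for lnc-TIMM21-5. The percentages of these lncRNAs, which include the lowest, thus rest on few reads. With lnc-RTN4R-1 and lnc-ASTN1-1, at 20.9 and 25.3 CPM in the controls, the range was 22.5% to 52.2%. Markers of B-cell precursors were high, with a summed level between 5089 and 5963 CPM over the samples, except VPREB1, which was at 0 in every sample. Markers of T cells summed to at most 0.533 CPM and those of erythroid cells to at most 0.0586 CPM. The myeloid gene MPO, a granule peroxidase, ran from 83.0 to 136.6 CPM in the controls, from 156 to 188 CPM with lnc-NKX2-3-1 GapmeR1 and from 284 to 445 CPM with lnc-RTN4R-1 GapmeR2, while the monocyte markers CD14, LYZ and CSF1R did not exceed 2.59 CPM in any sample. In bulk RNA, fewer cells that make a transcript and less of it per cell cannot be told apart.

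Levels in control cells chose these genes, so they are given as a description. The 10 highest held 39.4% of all counts assigned to the 106 genes. NEAT1, the scaffold of the nuclear paraspeckle, averaged 405 CPM ± 56.7 (SD, n = 5), ENSG00000227706, an lncRNA without an assigned name, 378 ± 7.37 and OIP5-AS1, a largely cytoplasmic transcript, 369 ± 7.44. They were followed by NORAD, which binds Pumilio proteins in the cytoplasm, at 289 ± 16.7, and by MALAT1, an RNA of nuclear speckles, at 239 ± 9.48. GABPB1-AS1, FGD5-AS1, EBLN3P, BLACE and HCP5 averaged between 118 and 234 CPM. These values are reads per gene, not per length, so their order is not one of molecules. TUG1, another widely studied non-coding RNA, stood at 445 CPM but is not a member, because the annotation release used here does not give it the lncRNA biotype, and the membership of such genes depends on the release. A further 42 genes lay under 30 CPM and 23 lay between 20 and 25 CPM. Just inside the threshold were ENSG00000269155, TMCC1-DT and ENSG00000261434, each at 20.7 CPM of raw totals, and just outside it LINC02604 at 19.95, PAXIP1-DT at 19.7 and CD27-AS1 at 19.5.

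**Figure D1:**
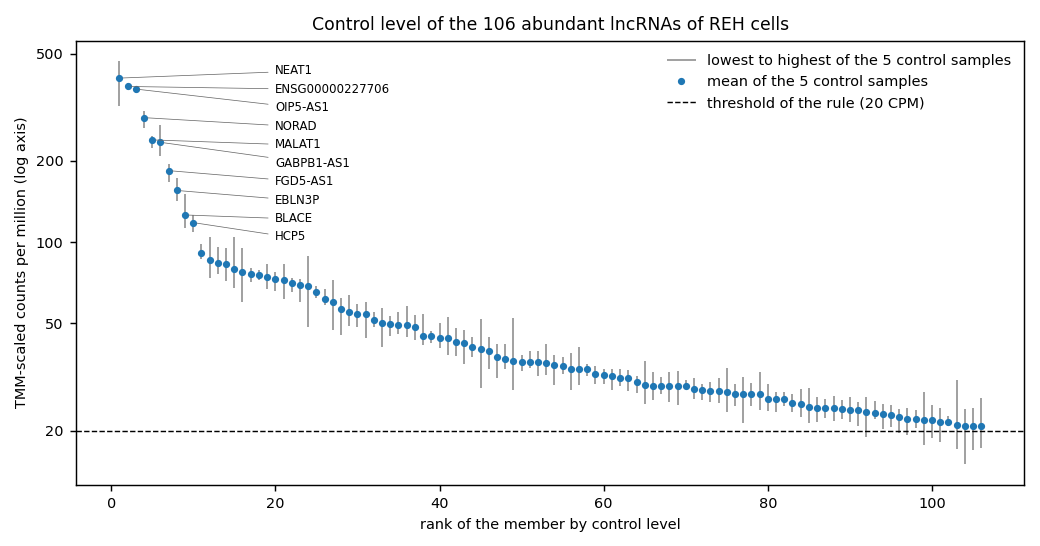
Control level of each of the 106 lncRNAs (TMM-scaled CPM, log axis), ordered by rank, with points for the mean and lines for the lowest to the highest of the 5 medium and NTC samples. Levels fall from 405 CPM for NEAT1 to the dashed threshold of 20 CPM, and 10 genes, named in the plot, are at 100 CPM or more.

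Levels can be compared between genes only per length of exon. On that scale (CPM per kb of exon, control mean) the order changed: ENSG00000253134, a transcript with 346 bases of exon on chromosome 5, came first at 106 CPM per kb, then ENSG00000227706 at 69.4, ENSG00000272733 at 64.1, NORAD at 53.6 and ENSG00000224239 at 52.5. BLACE, named for its expression in B-cell acute lymphoblastic leukemia, stood at 51.3 CPM per kb, CDK6-AS1, which starts opposite the cell cycle kinase gene CDK6, at 47.5, LINC02812 at 38.5, ENSG00000261434 at 36.9 and ENSG00000228496 at 33.0. NEAT1, with a single exon of 22767 bases, stood at 17.8 CPM per kb.

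Exons of the abundant lncRNAs covered a median of 6014.5 bases and the genes a median of 18472.5 bases, against 1930 and 4216 bases in the 2221 other lncRNA genes tested. Longer exons collect more reads at the same number of molecules, so a rule on CPM favours them. By position, 27 of the 106 (25.5%) started within 1 kb of a protein-coding start on the other strand, against 31.2% of the other lncRNA genes, 26 (24.5%, against 22%) overlapped an exon of a protein-coding gene on the other strand, 13 (12.3%, against 13%) overlapped one on the same strand, and 40 had none of these. A miRNA gene lay inside 10 of them (9.43%, against 2.16%) and a snoRNA gene inside 3 (2.83%, against 1.62%). The SNHG genes and GAS5, hosts of snoRNAs, were left out by name and count among the other lncRNA genes. Both snoRNA shares thus depend on that choice.

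Small RNA hosts included MIR142HG, precursor of the blood-cell miRNA miR-142, and DLEU2, which lies in the chromosome 13 region often lost in chronic lymphocytic leukemia and holds MIR15A and MIR16-1. Shown, as known products of these transcripts, are both mature forms of MIR142 and the 5p forms of MIR15A and MIR16-1. The 3p forms of MIR15A and MIR16-1, and MIR3613, which also lies in DLEU2, are not shown. Sequences are RNA, 5′ to 3′, from RefSeq on GRCh38.p14, with the seed (bases 2 to 8) in capitals. The miRNAs themselves were not measured.
hsa-miR-15a-5p (DLEU2, chr13:50049167-50049188, minus strand): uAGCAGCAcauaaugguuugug
hsa-miR-16-5p (DLEU2, chr13:50049027-50049048, minus strand): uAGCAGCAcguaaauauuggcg
hsa-miR-142-3p (MIR142HG, chr17:58331245-58331267, minus strand): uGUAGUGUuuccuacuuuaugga
hsa-miR-142-5p (MIR142HG, chr17:58331283-58331303, minus strand): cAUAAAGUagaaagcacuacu
The first 2 share the seed AGCAGCA, while those of miR-142 differ from it and from each other. DLEU2 ranged from 17.2 to 42.6 CPM over the 27 samples (median 29.3), and MIR142HG from 29.1 to 55.4 CPM (median 39.0). In the test for any difference among the 10 groups, DLEU2 had an adjusted p of 0.553 and MIR142HG of 0.151 (edgeR's quasi-likelihood test with Benjamini-Hochberg adjustment over all 16268 genes, as for every adjusted p below).

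Differences among the 10 groups were called (adjusted p under 0.05) in 42 of the 106 lncRNAs, where 16.1% of all genes tested were called. The 5 with the smallest p were TTN-AS1 (adjusted p = 4.62e-09), ENSG00000272733 (1.82e-08), NEAT1 (3.2e-08), ZFHX3-AS1 (3.92e-08) and MIR3667HG (4.77e-08). At the other end, the group means of FGD5-AS1 spanned 0.11 on the log2 scale, those of EBLN3P and ASB16-AS1 0.13 each, DHRS4-AS1 0.16 and OIP5-AS1 0.17. FGD5-AS1, a widely expressed transcript that starts opposite FGD5, lay between 166 and 198 CPM in all 27 samples.

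Against the controls, the 8 GapmeRs and 106 lncRNAs form 848 combinations, of which 71 were called, where 4.05% of all combinations of a tested gene and a GapmeR were. Of the 71, 64 were lower (all genes 2.31%) and 7 higher (all genes 1.74%). With none of the GapmeRs called were 57 lncRNAs, with 1 GapmeR 34, with 2 GapmeRs 10, with 3 GapmeRs 4 (HCG18, ENSG00000269155, ENSG00000272733 and FBXL19-AS1) and with 5 GapmeRs 1, ENSG00000227706. All 8 comparisons share the 5 control samples, and the genes were chosen by their level in those samples; the part of that choice in the direction of the changes was not tested. Between 56 and 77 of the 106 had a negative log2 fold change with each GapmeR. Their medians ran from −0.124 with lnc-NKX2-3-1 GapmeR1 to −0.0139 with lnc-NKX2-3-1 GapmeR2, while those over all genes tested lay within ±0.0063. Over the other genes that reach 20 CPM, the medians ran from −0.0238 to 0.0351. The lowest of these, with lnc-NKX2-3-1 GapmeR2, was below that of the lncRNAs. With every other GapmeR the median of the lncRNAs was the lower one.

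**Figure D2:**
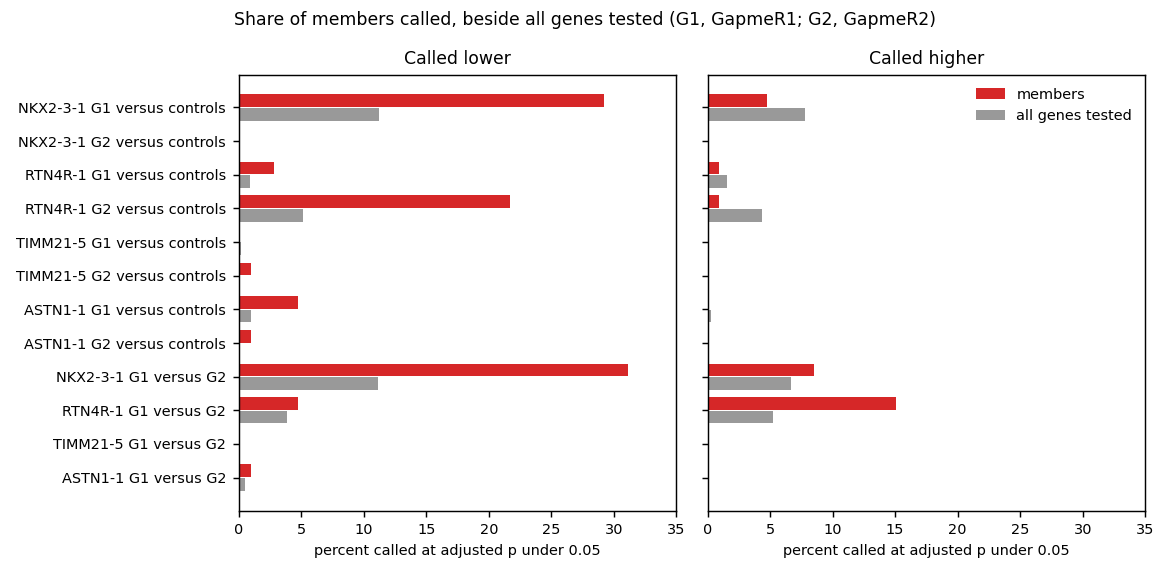
Percent of the 106 abundant lncRNAs (red) and of all genes tested (grey) that was called lower (left) and higher (right) in each comparison. Lower calls exceed the background with lnc-NKX2-3-1 GapmeR1 (29.2% against 11.2%) and lnc-RTN4R-1 GapmeR2 (21.7% against 5.14%), and higher calls with these GapmeRs do not.

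Among the RNAs of nuclear bodies, NEAT1 fell with lnc-RTN4R-1 GapmeR1. Its level was 392 and 321 CPM in medium and 443, 402 and 470 CPM with NTC, and 217, 185 and 179 CPM with lnc-RTN4R-1 GapmeR1. Every sample with this GapmeR lay below every other sample of the series, and the log2 fold change was −1.03 ± 0.089 (SE; adjusted p = 2.98e-08). With lnc-RTN4R-1 GapmeR2, directed at the same lncRNA, NEAT1 stood at 449, 384 and 386 CPM, inside the range of the controls (log2 fold change 0.04, adjusted p = 0.85), and GapmeR1 differed from GapmeR2 by −1.07. MALAT1 ranged from 209.9 to 488 CPM with a median of 244 and was called with none of the GapmeRs (adjusted p among the groups 0.812). Single libraries stood apart from their own group: MALAT1 was 488 CPM in lnc-ASTN1-1 GapmeR1 replicate 1 beside 210 and 234 CPM in its replicates 2 and 3, and 390 CPM in lnc-TIMM21-5 GapmeR1 replicate 3 beside 215 and 235 CPM. MIAT, also a nuclear RNA, was at 18.7 and 19.6 CPM in NTC replicates 1 and 2 and at 30.8 CPM in replicate 3, and was called with none of the GapmeRs (adjusted p among the groups 0.195). Of this list of 4 nuclear-body RNAs, FIRRE was below the threshold at 15.6 CPM.

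The cytoplasmic and translation-linked members NORAD, OIP5-AS1, DANCR, EPB41L4A-AS1 and ZFAS1 were called with none of the 8 GapmeRs, and their adjusted p among the groups lay between 0.384 for OIP5-AS1 and 0.895 for DANCR. OIP5-AS1 stayed between 330.3 and 387 CPM over all 27 samples. Of this list of 9 genes 8 were tested, 5 of them members. JPX, the one member from the X chromosome inactivation centre list, lay between 17.8 and 23.6 CPM (adjusted p among the groups 0.734). No gene of the lists of imprinted lncRNAs and of RNAs of ribonucleoprotein enzymes was a member. Of the latter list, RMRP and RPPH1 stood at 0 CPM and TERC at 0.033 CPM in the controls. Poly-A selection, named in the methods, would miss RNAs without a tail, and its part in these values was not tested.

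Of the 9 tested genes on a list linked to leukemia or lymphoid cells, the members were PVT1, CASC15, LINC00958 and LINC00426. PVT1, the neighbour of MYC, stood at 30.3 and 25.5 CPM in medium, 29.0, 26.7 and 28.5 CPM with NTC, and 16.4 and 13.2 CPM with lnc-NKX2-3-1 GapmeR1, with no overlap (log2 fold change −0.91 ± 0.106, adjusted p = 5.83e-07). With GapmeR2 against the same lncRNA PVT1 stood at 34.9, 31.1 and 31.6 CPM, above every control sample (log2 fold change 0.22, adjusted p = 0.66). CASC15, an lncRNA that lies across about 990 kb of chromosome 6 and was linked to leukemia with RUNX1 translocations, fell by 0.36 with lnc-RTN4R-1 GapmeR2 (adjusted p = 0.017), as did LINC00958 by 0.26 (adjusted p = 0.00375) and PVT1 by 0.29 (adjusted p = 0.0425). CASC15 with lnc-NKX2-3-1 GapmeR1 gave −0.28 (adjusted p = 0.074). LINC00426 was called with none of the GapmeRs.

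With lnc-NKX2-3-1 GapmeR1, 36 of the 106 lncRNAs were called where 19% of all genes were called, 31 lower (all genes 11.2%) and 5 higher (all genes 7.81%). Among genes that are not lncRNAs and reach 20 CPM in the controls, 11.7% were lower. The largest fall was that of LINC02334, an lncRNA of chromosome 13, which stood at 79.4 and 96.0 CPM in medium, 80.3, 87.3 and 75.8 CPM with NTC, and 10.9 and 14.1 CPM with GapmeR1 (log2 fold change −2.76 ± 0.225, adjusted p = 4.75e-09). With GapmeR2 LINC02334 was at 85.4, 86.2 and 78.0 CPM, within the controls. TTN-AS1, which runs opposite the titin gene TTN, lay between 29.7 and 33.8 CPM in the controls and at 11 and 12.2 CPM with GapmeR1 (log2 fold change −1.45 ± 0.0974, adjusted p = 5.2e-11). Neither lncRNA overlapped between GapmeR1 and any control sample. MIR3667HG, host of a miRNA gene, fell by 1.12 (adjusted p = 3.12e-09), with 10.5 and 11.9 CPM against 22.3 to 26.2 CPM in the controls. ENSG00000224239 fell by 1.24 (adjusted p = 1.36e-08), with 9.99 and 12 CPM against 24.7 to 27.8 CPM. BLACE stood at 120 and 126 CPM in medium, 113, 121 and 151 CPM with NTC, and 57.2 and 60.6 CPM with GapmeR1 (log2 fold change −1.09 ± 0.178, adjusted p = 9.61e-05).

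ENSG00000224239 lies 10562 bases from LINC01266 on the same strand of chromosome 3, and LINC01266, which is named here after its values were seen, fell by 1.21 ± 0.184 (adjusted p = 4.1e-05). Higher with this GapmeR were CDK6-AS1, at 84.1 and 83.2 CPM against 40.9 to 57.0 CPM over the controls (log2 fold change 0.73 ± 0.14, adjusted p = 0.000535), PP7080 and ENTPD1-AS1 (0.48 each), ENSG00000227706 (0.39) and ENSG00000253134 (0.37). MPO was also higher in these samples, at 156 to 188 CPM, and its part in these results was not tested.

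With lnc-NKX2-3-1 GapmeR2, 0 of the 106 were called by edgeR's quasi-likelihood test, where 0.043% of all genes were called. At an unadjusted p under 0.05 there were 11, and DESeq2 called 1. The fit with the replicate number as a block called 10 (all genes 3.74%). Set directly against each other, GapmeR1 and GapmeR2 of lnc-NKX2-3-1 differed in 42 lncRNAs, 33 lower (all genes 11.1%) and 9 higher (all genes 6.71%) with GapmeR1, where 17.8% of all genes differed. This comparison used no control sample; its median over the lncRNAs was −0.160. Without GapmeR1 replicate 1 the count was 26. Against the controls both GapmeRs combined gave 21 calls (all genes 8.01%), 19 lower (all genes 5.63%) and 2 higher (all genes 2.38%). Without medium replicate 2 there were 13.

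With lnc-RTN4R-1 GapmeR2, 24 lncRNAs were called where 9.46% of all genes were called, 23 lower (all genes 5.14%) and 1 higher (all genes 4.32%). ENSG00000272733, a transcript of 1081 exon bases on chromosome 22, stood at 73.2 and 68.7 CPM in medium and at 71.5, 73.1 and 60.1 CPM with NTC. It stood at 30.9, 32.5 and 35.6 CPM with GapmeR2 (log2 fold change −1.08 ± 0.0791, adjusted p = 5.13e-10) and at 66.9, 76.7 and 71.1 CPM with GapmeR1. The samples with GapmeR2 lay below every control sample, and those with GapmeR1 overlapped the controls. ZFHX3-AS1, opposite the transcription factor gene ZFHX3, stood at 28.4 and 30.6 CPM in medium, 26.2, 31.3 and 26.2 CPM with NTC and 14.3, 13.1 and 14.3 CPM with GapmeR2 (log2 fold change −1.04 ± 0.0799, adjusted p = 1.08e-09), and at 29.5, 31.2 and 29.9 CPM with GapmeR1. MIR3667HG fell by 0.76, GARS1-DT by 0.65, FBXL19-AS1 by 0.49 and TTN-AS1 by 0.46. MPO was highest with this GapmeR, at 284 to 445 CPM, and its part in these results was not tested.

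With lnc-RTN4R-1 GapmeR1 only 4 lncRNAs were called (all genes 2.39%). Besides NEAT1, LINC00539 fell by 0.67 (adjusted p = 3.04e-06), with 13.8, 13.5 and 16.4 CPM against 22.0 to 25.8 CPM in the controls. FBXL19-AS1 fell by 0.36 (adjusted p = 0.00413), and ENSG00000269155 rose. ENSG00000269155 stood at 24.1 and 23.9 CPM in medium and 18.7, 22.6 and 15 CPM with NTC. It was at 31.1, 33.1 and 28.1 CPM with GapmeR1 (log2 fold change 0.54, adjusted p = 0.00252) and at 12.4, 11.6 and 14.4 CPM with GapmeR2 (log2 fold change −0.73, adjusted p = 5.77e-05), so both GapmeRs against one target lay on opposite sides of the controls. GapmeR1 and GapmeR2 of lnc-RTN4R-1 differed in 21 lncRNAs, 16 higher (all genes 5.27%) and 5 lower (all genes 3.82%) with GapmeR1, where 9.09% of all genes differed. Both together against the controls gave 15 calls (all genes 4.68%, either direction), and 8 without medium replicate 2. All 15 were lower, where 429 of all tested genes with a gene length were lower and 326 higher.

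**Figure D3:**
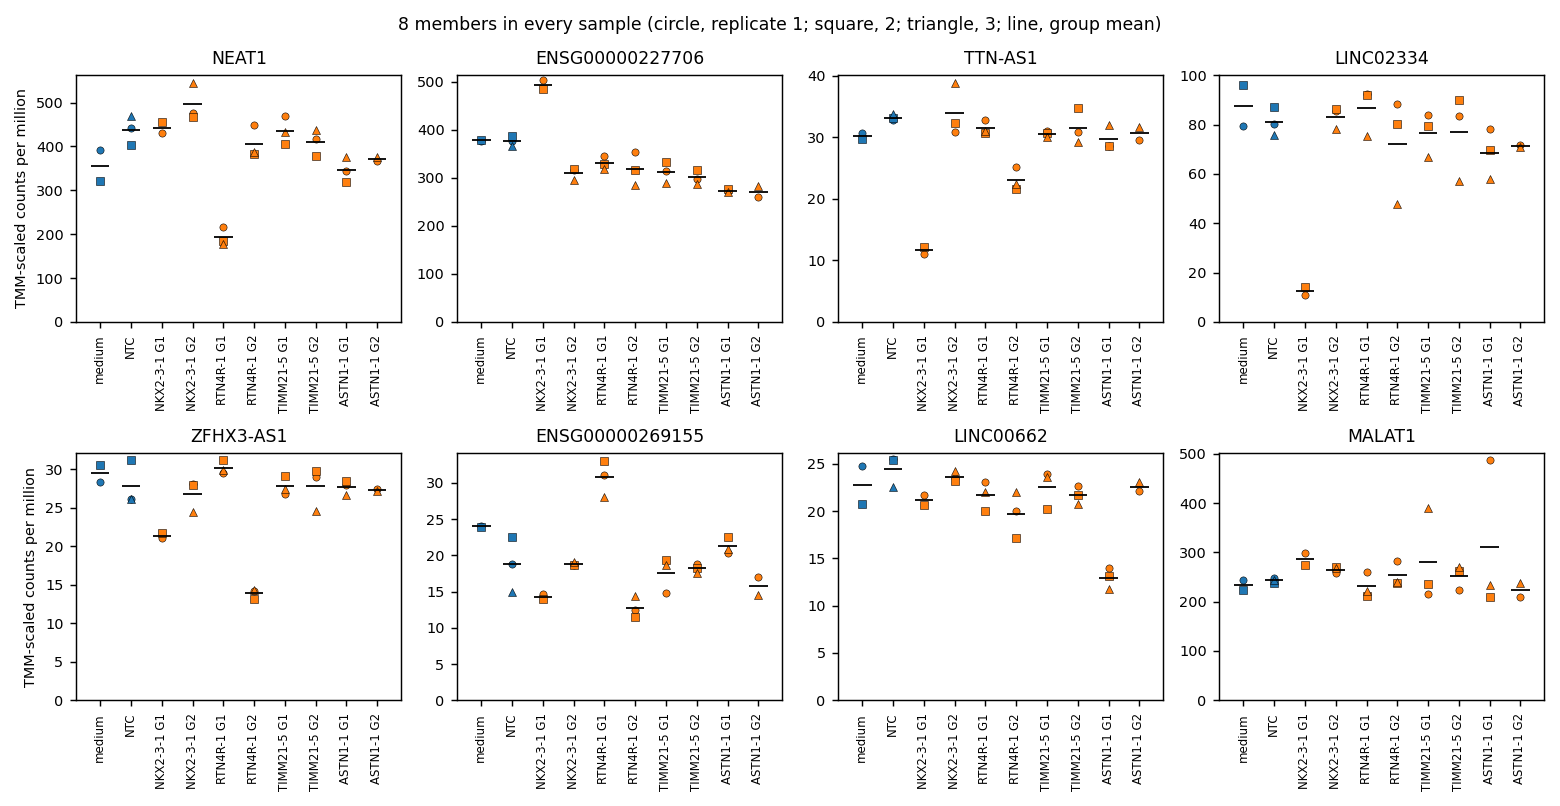
Level in each of the 27 samples (TMM-scaled CPM, axis from 0) of 8 of the lncRNAs, by treatment group (G1, GapmeR1; G2, GapmeR2), with controls in blue and lines for the group means. NEAT1 is lowest with lnc-RTN4R-1 GapmeR1, TTN-AS1 and LINC02334 with lnc-NKX2-3-1 GapmeR1, ZFHX3-AS1 with lnc-RTN4R-1 GapmeR2 and LINC00662 with lnc-ASTN1-1 GapmeR1.

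Few of the lncRNAs were called with the GapmeRs against lnc-TIMM21-5 in the fit without a replicate block. GapmeR1 gave 0 calls by edgeR's quasi-likelihood test (all genes 0.184%; 12 at an unadjusted p under 0.05, 1 by DESeq2) and GapmeR2 gave 1 (all genes 0.0676%). The 1 call was ENSG00000227706, which fell by 0.33 (adjusted p = 0.0368) and was lost without any 1 of the 8 libraries compared. GapmeR1 against GapmeR2 gave 0 of the 106 by edgeR (all genes 0.141%), 0 by DESeq2 and 2 at an unadjusted p under 0.05. Together they gave 1 call (all genes 0.191%), and 0 without medium replicate 2. With the replicate number as a block, GapmeR1 gave 8 calls (all genes 3.31%), GapmeR2 3 (all genes 0.818%) and both together 10 (all genes 2.94%).

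With lnc-ASTN1-1 GapmeR1, 5 lncRNAs were called (all genes 1.22%, either direction). All 5 fell, where 156 of all tested genes with a gene length were lower and 39 higher. Without replicate 1 or 3 of this GapmeR 2 were called, and without its replicate 2 there were 3. LINC00662, an lncRNA of chromosome 19, stood at 24.8 and 20.7 CPM in medium, 25.5, 25.4 and 22.6 CPM with NTC, and 13.9, 13.2 and 11.8 CPM with GapmeR1 (log2 fold change −0.87 ± 0.0911, adjusted p = 1.32e-06). With GapmeR2 it stood at 22.1 and 23.1 CPM, within the controls, and it was the 1 lncRNA in which both GapmeRs differed (−0.80; all genes 0.553%). ENSG00000227706 fell by 0.47, LINC02363 by 0.38, ENSG00000272733 by 0.33 and HCG18 by 0.27. GapmeR2 gave 1 call, ENSG00000227706 (fell by 0.48, adjusted p = 0.00509; all genes 0.0184%), and 0 without either of its replicates. Both together gave 4 (all genes 0.424%), and 2 without lnc-ASTN1-1 GapmeR1 replicate 1, GapmeR2 replicate 1, medium replicate 2 or NTC replicate 2.

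ENSG00000227706 was thus called with more GapmeRs than any other of the 106. It is transcribed from the minus strand of chromosome 6 (chr6:67878316-67889339, hg38) in 4 exon blocks and has no protein-coding gene overlapping it or starting within 1 kb. In the controls it stood at 377 and 379 CPM in medium and at 376, 388 and 367 CPM with NTC. It stood at 503 and 485 CPM with lnc-NKX2-3-1 GapmeR1, above every other sample, and between 260 and 354 CPM in all samples of the other targeting GapmeRs, below every control sample. Lower by the test were lnc-RTN4R-1 GapmeR2 (−0.24), lnc-TIMM21-5 GapmeR2 (−0.33) and both GapmeRs of lnc-ASTN1-1. Not past the test were lnc-NKX2-3-1 GapmeR2 (−0.28, adjusted p = 0.222), lnc-RTN4R-1 GapmeR1 (−0.19, 0.142) and lnc-TIMM21-5 GapmeR1 (−0.27, 0.0809). NTC did not differ from medium in any of the 106 by edgeR's quasi-likelihood test (0 of all genes; 5 of the 106 at an unadjusted p under 0.05 and 0 by DESeq2).

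**Figure D4:**
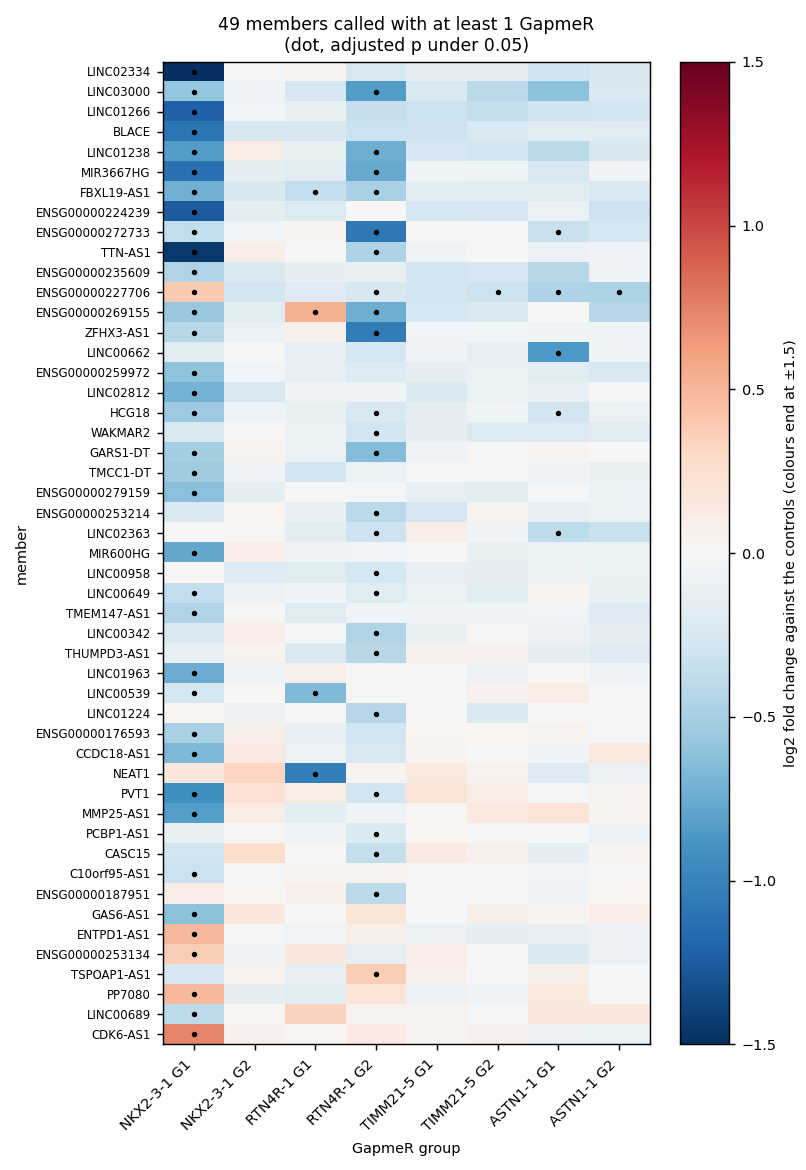
Log2 fold change against the controls, as a colour that ends at ±1.5, of the 49 lncRNAs called with at least 1 GapmeR (rows), by GapmeR (columns; G1, GapmeR1; G2, GapmeR2), with a dot on each of the 71 called combinations. Most dots lie under lnc-NKX2-3-1 GapmeR1 (36) and lnc-RTN4R-1 GapmeR2 (24), and 64 of the 71 mark lower levels.

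Whether the lncRNAs hold stretches that pair with the GapmeRs was described from the oligonucleotide sequences. They are DNA, 5′ to 3′, as designed, and are shown for the non-targeting control and for the 4 GapmeRs with at least 4 calls, with no capitals.
NTC: aacacgtctatacgc
lnc-NKX2-3-1 GapmeR1: tgctctgtgcggattg
lnc-RTN4R-1 GapmeR1: gcattcatgggttaag
lnc-RTN4R-1 GapmeR2: tgctgagacatctagg
lnc-ASTN1-1 GapmeR1: taatctgccaggagtg
An uninterrupted perfect complement of at least 13 bases was searched in the transcribed strand of each gene, introns included. It was present in 11 of the 848 combinations, of which 3 were called lower (27.3%), against 7.29% of the combinations with a shorter run. Over all genes tested the shares were 9.93% against 2.25%. The 9.93% includes intended targets of the GapmeRs, and every target was called lower with its GapmeRs. A run of 16 bases was present in 7 combinations, of which 6 were called lower, so these 7 are not all intended targets. Genes with such a run were also longer, with a median of 310500 bases against 17259 bases, so that length and pairing cannot be told apart here. The 3 that fell, and TSPOAP1-AS1, which did not pass the test, are given with 12 bases on each side, on the transcribed strand (hg38), and with the complementary run in capitals.
ZFHX3-AS1 and lnc-RTN4R-1 GapmeR2, intron, chr16:72765746-72765783, plus strand: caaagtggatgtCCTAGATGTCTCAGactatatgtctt
GapmeR with the paired bases in capitals: tgCTGAGACATCTAGG
LINC03000 and lnc-RTN4R-1 GapmeR2, intron, chr5:165017722-165017758, plus strand: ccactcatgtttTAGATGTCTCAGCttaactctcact
GapmeR with the paired bases in capitals: tGCTGAGACATCTAgg
LINC00662 and lnc-ASTN1-1 GapmeR1, intron, chr19:27769419-27769455, minus strand: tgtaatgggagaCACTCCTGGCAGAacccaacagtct
GapmeR with the paired bases in capitals: taaTCTGCCAGGAGTG
TSPOAP1-AS1 and lnc-ASTN1-1 GapmeR1, exon, chr17:58329242-58329278, plus strand: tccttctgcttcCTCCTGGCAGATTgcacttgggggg
GapmeR with the paired bases in capitals: tAATCTGCCAGGAGtg
The runs were 14 bases in ZFHX3-AS1 and 13 in the others. LINC03000, an lncRNA gene of about 875 kb, stood at 31.8 and 23.4 CPM in medium, 34.2, 24.6 and 25.3 CPM with NTC and 18.0, 14.9 and 13.8 CPM with lnc-RTN4R-1 GapmeR2 (log2 fold change −0.84 ± 0.161, adjusted p = 0.00108). TSPOAP1-AS1 with lnc-ASTN1-1 GapmeR1 gave 0.09 (adjusted p = 0.955), and the remaining 7 combinations with a run of 13 were not called either. LINC03000 and TSPOAP1-AS1 were named after their values were seen. Among the 14 combinations lower by at least 0.8 on the log2 scale, 3 had a run of 13 or more. NEAT1 with lnc-RTN4R-1 GapmeR1 had a longest run of 11 bases, as had TTN-AS1 and MIR3667HG with lnc-NKX2-3-1 GapmeR1, whereas LINC02334, LINC01266 and PVT1 had 10, and BLACE, ENSG00000224239 and ENSG00000272733 fewer than 10. In exons alone, 2 combinations had a run of 13 and neither was called.

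The lncRNAs that fell were spread over gene lengths. With lnc-RTN4R-1 GapmeR2 the 23 lower lncRNAs had a median gene length of 44.6 kb and the 82 not called one of 11.3 kb, while over all genes tested the lower ones had 117 kb and those not called 22.9 kb. With lnc-NKX2-3-1 GapmeR1 the medians were 30.1 kb for the 31 lower, 11 kb for the 5 higher and 16 kb for the 70 not called, against 65.3, 33.4 and 20.8 kb over all genes. Of the 16 lncRNAs longer than 100 kb, 8 were lower with each of these GapmeRs, where 28% (lnc-NKX2-3-1 GapmeR1) and 17.9% (lnc-RTN4R-1 GapmeR2) of all tested genes of that length were. Of the 90 shorter ones 23 were lower with lnc-NKX2-3-1 GapmeR1 and 15 with lnc-RTN4R-1 GapmeR2, where 8.07% and 2.72% of all shorter genes were. Genes called lower were longer over the transcriptome as a whole with both GapmeRs, so a difference in length is not particular to the lncRNAs.

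**Figure D5:**
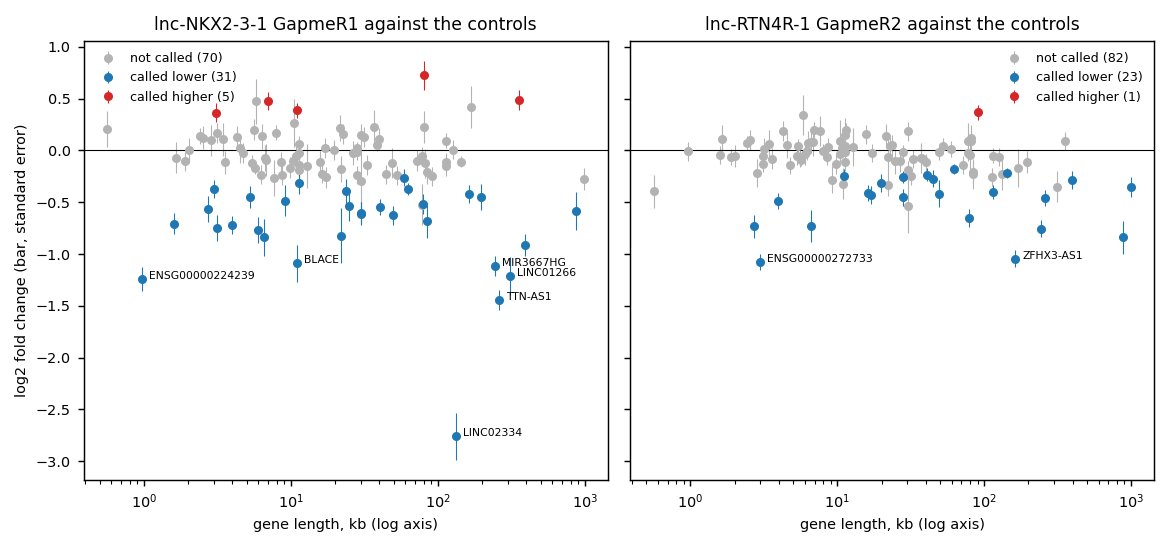
Log2 fold change against the controls with its standard error for each of the 106 lncRNAs by gene length (kb, log axis), with lnc-NKX2-3-1 GapmeR1 (left) and lnc-RTN4R-1 GapmeR2 (right), blue where called lower and red where called higher. Of the 16 lncRNAs above 100 kb 8 are blue in each panel, and short ones such as ENSG00000224239 (left) and ENSG00000272733 (right) fall by over 1 as well.

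For 48 of the lncRNAs the protein-coding partner that overlaps an exon on the other strand or starts opposite was also tested. With lnc-NKX2-3-1 GapmeR1, 16 of these lncRNAs and 8 partners were called, where 19% of all genes were, and in no pair were both. TTN-AS1 fell by 1.45 beside −0.12 for TTN (adjusted p = 0.841), and CDK6-AS1 rose by 0.73 beside −0.08 for CDK6 (adjusted p = 0.719). TTN had only 134 reads over the 5 control samples together, so a change in it could be missed. With lnc-RTN4R-1 GapmeR2, 10 of these lncRNAs and 5 partners were called, where 9.46% of all genes were, and 3 pairs had both. ZFHX3-AS1 fell by 1.04 and ZFHX3, a transcription factor gene, rose by 0.34 (adjusted p = 0.0308). FBXL19-AS1 fell by 0.49 while FBXL19 rose by 0.18 (adjusted p = 0.048), and TSPOAP1-AS1 rose by 0.37 together with TSPOAP1, by 0.60. GARS1-DT, which starts opposite the glycyl-tRNA synthetase gene GARS1, fell by 0.65 beside −0.24 for GARS1 (adjusted p = 0.0945). Reads assigned to the wrong strand were few: 915 protein-coding genes of at least 100 CPM with no gene opposite had a median of 0.115% of their reads on the other strand, and that share of the partner's reads would reach at most 1.77% of the reads of a lncRNA, for WAKMAR2 beside TNFAIP3. MIR142HG lies with all of its 1645 bases inside TSPOAP1-AS1 on the other strand.

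Replicates were made on different days, per the methods, which do not say which number is which day, and many of these RNAs differed with the replicate number. In the fit with the replicate number, 62 of the 106 differed between replicate 3 and replicates 1 and 2, 27 higher (all genes 28.1%) and 35 lower (all genes 26%), where 54.1% of all genes tested did. MIAT was higher by 0.63 (adjusted p = 1.46e-13), BLACE by 0.36 (adjusted p = 7.81e-15) and LINC00426 by 0.37, while DANCR was lower by 0.41 and TMPO-AS1, which starts opposite the nuclear lamina gene TMPO, by 0.37. In NTC, TMPO-AS1 stood at 56.7 and 61.3 CPM in replicates 1 and 2 and at 45.2 CPM in replicate 3, and DANCR at 58.6, 61.6 and 47.1 CPM. The groups lnc-NKX2-3-1 GapmeR1 and medium have no replicate 3, and lnc-ASTN1-1 GapmeR2 no replicate 2.

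As a share of all counts, the 106 genes held between 0.572% and 0.681% in the 27 samples. The mean was 0.632% ± 0.029 (SD, n = 5) in the controls, 0.576% ± 0.0025 (n = 2) with lnc-NKX2-3-1 GapmeR1, 0.593% ± 0.010 (n = 3) and 0.587% ± 0.015 (n = 3) with the GapmeRs of lnc-RTN4R-1, and 0.649% ± 0.028 (n = 3) with lnc-NKX2-3-1 GapmeR2. It was 0.626% ± 0.019 (n = 3) and 0.614% ± 0.012 (n = 3) with those of lnc-TIMM21-5, and 0.602% ± 0.022 (n = 3) with lnc-ASTN1-1 GapmeR1. The 2 samples of lnc-ASTN1-1 GapmeR2 stood at 0.575% and 0.624%. The samples of lnc-NKX2-3-1 GapmeR1 all lay below the lowest control (at most 0.578% against 0.598%), and every other group overlapped the controls. By replicate number, untested, the mean was 0.609% in replicate 1, 0.597% in replicate 2 and 0.632% in replicate 3.

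Of 35 protein genes of nuclear bodies and of lncRNA turnover, listed to set beside the lncRNAs, 6 rose (all genes 7.81% higher) and none fell (all genes 11.2% lower) with lnc-NKX2-3-1 GapmeR1, among them the splicing coactivator gene SRRM1 (0.51) and SFPQ, a paraspeckle protein gene (0.32). With lnc-RTN4R-1 GapmeR2 1 rose (all genes 4.32%), the exosome subunit gene EXOSC4 (0.55), and none was called with lnc-RTN4R-1 GapmeR1, with which NEAT1 fell. Between replicate 3 and the others 29 differed (all genes 54.1%), 26 of them lower (all genes 26%).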

How the data were processed

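The authors aligned RNA-seq reads of REH cells to hg38 with STAR (per the labels and methods) and deposited raw counts per gene in 3 columns per sample, without strand and for either strand. The annotation release behind the counts is not given in the sources used here. The labels name ribodepleted stranded total RNA, the methods poly-A selection; the latter would miss RNAs without a tail. The column of the library's strand (column 4) was used for the levels and tests; rows that name no gene (23.0% to 28.5% of the column per sample) stayed out. GENCODE release 44 gave names, biotypes and coordinates, and matched 56434 of 60619 gene IDs.

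Counts were tested with edgeR 4.0.16 (R 4.3.3; TMM, filterByExpr with a minimum count of 10 and total of 15, robust quasi-likelihood fit of all 27 samples with 10 group terms). The control side is the equal mean of medium and NTC. Benjamini-Hochberg adjustment ran over 16268 genes, with calls at an adjusted p under 0.05. CPM in the text are scaled by TMM, except at the threshold. The fit was tested on simulated data. DESeq2 1.42.0 and a fit with the replicate number as a block were alternatives. Intervals are standard errors of the fit over samples. Each p-value sets a difference between groups against the variation within groups, estimated over all 27 samples.

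Replicates were made on different days, per the methods, but the sources do not tie a replicate number to the same day in every group, so the fit without the block is the one reported.

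The genes named are those of role lists, the 10 highest per kb of exon, the 3 on each side of the threshold, the 10 with the smallest p and the 5 with the smallest spread among groups, up to 5 with the smallest adjusted p per comparison, and their partners; the genes of highest CPM, LINC01266, LINC03000, TSPOAP1-AS1, PP7080, ENTPD1-AS1 and WAKMAR2 were added after their values were seen. The members and lists were chosen with earlier results of these data known. Complementary runs of at least 10 bases were searched on both the genomic span and the exons.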

Additional observations from a re-analysis of the deposited data

Results flagged for a closer look

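Both GapmeRs against one lncRNA were set directly against each other, in the same fit, and these differences passed the test (edgeR's quasi-likelihood test, Benjamini-Hochberg adjusted p under 0.05). GapmeR1 and GapmeR2 of lnc-NKX2-3-1 differed in 42 of the 106 abundant lncRNAs (all genes 17.8%). The log2 difference, GapmeR1 minus GapmeR2, was −2.74 for LINC02334, −1.55 for TTN-AS1, −1.13 for PVT1, −1.11 for ENSG00000224239 and −0.98 for MIR3667HG. The GapmeRs of lnc-RTN4R-1 differed in 21 (all genes 9.09%). Their log2 differences were 1.27 for ENSG00000269155, 1.12 for both ZFHX3-AS1 and ENSG00000272733, −1.07 for NEAT1 and −0.68 for LINC00539. The GapmeRs of lnc-ASTN1-1 differed in 1, LINC00662, by −0.80 (all genes 0.553%). The lncRNA named as the target lay below every control sample with both GapmeRs of each pair. For lnc-NKX2-3-1 this rests on few reads, as its control mean was 0.764 CPM.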

How the results depend on the processing

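Counts of changed lncRNAs depended on the fit more than the calls with the smallest p did. These were up to 5 called lncRNAs per comparison, and 10 for the test among the groups. Of their 1155 values under alternatives, 1086 stayed past the threshold, 69 did not and 0 reversed in direction. Values of the test among the groups have no direction and could not reverse. Other calls, with larger p, were not among these values, so the figures do not cover them. Of the counts under alternatives that leave out no library, 124 stayed within 1.5 times and 43 did not; except where fewer samples were compared, the cause was not tested. With DESeq2, 1 lncRNA was called for lnc-NKX2-3-1 GapmeR2 and 1 for lnc-TIMM21-5 GapmeR1. Without a filter on low counts there were 2 for lnc-NKX2-3-1 GapmeR2, 3 (GapmeR1), 2 (GapmeR2) and 4 (both) for lnc-TIMM21-5, 10, 2 and 9 in the same order for lnc-ASTN1-1, 3 between the GapmeRs of lnc-ASTN1-1 and 1 between NTC and medium. With NTC as the only control there were 0 for lnc-TIMM21-5 GapmeR2 and 3 for lnc-ASTN1-1 GapmeR1. Fitted on its own samples, lnc-TIMM21-5 GapmeR2 gave 0 and lnc-ASTN1-1 GapmeR1 and GapmeR2 gave 3 and 0. Both GapmeRs combined then gave 0 (lnc-NKX2-3-1), 1 (lnc-RTN4R-1), 0 (lnc-TIMM21-5) and 1 (lnc-ASTN1-1), and those of lnc-ASTN1-1 differed in 0. Without regard to strand lnc-TIMM21-5 GapmeR2 gave 0. With replicates 1 and 2 only, lnc-RTN4R-1 GapmeR1 gave 7, lnc-TIMM21-5 GapmeR1 1 and both of lnc-TIMM21-5 2. Counts in this paragraph, and those below with 1 library left out, are given without the share over all genes. They describe the fits and are no result about the lncRNAs.

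The labels do not say what a replicate number shares across groups. Deviations from the group means correlated between samples of the same number by 0.263 on average, with −0.0349 the lowest of 109 pairs, against −0.130 between other numbers. As the sources do not tie a number to a day, the fit without the block is the one reported. Differences by replicate number thus stay in the spread of that fit. As a hint from the data, 24 of 27 samples correlated best with their own number over all genes and 27 of 27 over the abundant lncRNAs. Over the latter the mean was 0.548 within and −0.270 between numbers. Such deviations cancel out within a group, so a negative mean between numbers follows from a positive one within them and is no separate evidence. With the replicate number as a block (replicate block), lnc-NKX2-3-1 gave 58 (GapmeR1, all genes 35.7%) and 10 (GapmeR2, all genes 3.74%). In the same order, lnc-RTN4R-1 gave 19 (all genes 9.03%) and 42 (all genes 25.2%). For lnc-TIMM21-5 there were 8 (all genes 3.31%) and 3 (all genes 0.818%), and for lnc-ASTN1-1 14 (all genes 4.82%) and 3 (all genes 0.16%). Both together gave 42 (all genes 24%), 37 (all genes 15.1%), 10 (all genes 2.94%) and 12 (all genes 2.4%) in the same order of targets. The GapmeRs differed in 36 for lnc-RTN4R-1 (all genes 26.3%) and in 2 for lnc-ASTN1-1 (all genes 1.67%). Among the 10 groups 70 differed (all genes 48.6%). None of the calls with the smallest p, as followed above, was lost with the block.

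Leaving out 1 library at a time gave 26 to 38 for lnc-NKX2-3-1 GapmeR1, 0 for its GapmeR2, 13 to 21 for both and 26 to 38 between them (26 without GapmeR1 replicate 1). For lnc-RTN4R-1 it gave 4 to 5, 19 to 23, 8 to 15 for both and 14 to 18 between them. For lnc-TIMM21-5 it gave 0, 0, 0 to 1 for both and 0 between them, and for lnc-ASTN1-1 2 to 4, 0 to 1, 2 to 4 for both and 1 between them. The number that differ among the groups was 29 to 43, that between NTC and medium 0, and the number of genes in the set 105 to 107. The libraries that moved a count by over 1.5 times were medium replicate 2, which took both GapmeRs together to 13 (lnc-NKX2-3-1), 8 (lnc-RTN4R-1), 0 (lnc-TIMM21-5) and 2 (lnc-ASTN1-1), NTC replicate 2, each library of lnc-ASTN1-1, and lnc-NKX2-3-1 GapmeR1 replicate 1; the 1 call of lnc-TIMM21-5 GapmeR2 was lost without any of the 8 libraries compared. Where a group kept 1 sample, it was assumed to vary like the others.

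A threshold of 10 CPM would give 225 genes and one of 50 CPM 32. Counting exons only, 2 combinations in place of 11 had a complementary run of at least 13 bases. The share of counts held by the set was 0.573% without its highest gene, against 0.612%. The lowest count of any lncRNA of the set in a sample was 186 reads, which limits the precision near the threshold.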
